A study of Mus musculus with 8 samples.

Results

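Prr5l and 9 genes of the mTOR complexes and their closest partners were followed through RNA-seq of regulatory T (Treg) cells of the mouse large intestine. The 10 genes are Prr5l, Rictor, Mapkap1, Mtor, Mlst8, Rptor, Sgk1, Akt1, Tsc1 and Tsc2, and they were found by symbol among the 19191 gene rows of the deposited count table. All 10 had a single row and passed the filter on low counts, as did 14274 genes in all. The set was chosen by biological role around Prr5l, and Prr5l was chosen by its difference between KO and WT in these same counts: its adjusted p in the authors' deposited table was 4e-05, against 0.889 for each of the other 9, and 0.344% of all genes there were under 0.05. The differences between genotypes in these 10 genes are therefore given as a description, without a test.

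Treg cells are CD4 T cells that express Foxp3 and hold immune responses in check, and here they were sorted from the lamina propria of C57BL/6 mice. Ahr is the gene of the aryl hydrocarbon receptor, which small molecules from food, microbes and the environment turn into an active transcription factor. The KO cells had the genotype Ahrf/- Foxp3Yfp-Cre and the WT cells Ahrf/+ Foxp3Yfp-Cre, with 2 libraries of total RNA each. Both genotypes thus carried a floxed Ahr allele and a Cre made from the Foxp3 locus. The second allele was null in KO mice and intact in WT mice, so WT Treg cells kept a working copy and the other cells of KO mice also had a copy fewer. Age, sex and the number of animals per library are not given in the labels used here, so p-values reflect the spread between libraries that may differ only technically.

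mTOR is a serine/threonine kinase that works in 2 protein complexes. In mTORC1, held together by raptor (Rptor), it couples nutrients and growth factors to protein synthesis, and the TSC1-TSC2 complex restrains it by switching off the small GTPase Rheb. In mTORC2, built on rictor (Rictor) and SIN1 (Mapkap1), it phosphorylates kinases of the AGC family such as AKT and SGK1. PRR5L, also called Protor-2, binds rictor and is an accessory subunit of mTORC2. In Treg cells mTORC1 activity is known to be needed for suppressive function.

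In the RefSeq annotation (build GRCm38) Prr5l has 3 promoter windows on the minus strand of chromosome 2. The stretches of 250 bases before each annotated start are shown because Ahr, paired with its partner Arnt, binds DNA at the core letters GCGTG. The capitals mark that core, searched on both strands.
Start 1, chr2:101883028-101883277: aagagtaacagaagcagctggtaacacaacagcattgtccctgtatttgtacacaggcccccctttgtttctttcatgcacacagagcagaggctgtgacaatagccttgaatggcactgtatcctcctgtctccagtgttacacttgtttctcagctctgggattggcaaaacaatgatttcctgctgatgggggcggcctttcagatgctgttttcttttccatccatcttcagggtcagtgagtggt
Start 2, chr2:101838981-101839230: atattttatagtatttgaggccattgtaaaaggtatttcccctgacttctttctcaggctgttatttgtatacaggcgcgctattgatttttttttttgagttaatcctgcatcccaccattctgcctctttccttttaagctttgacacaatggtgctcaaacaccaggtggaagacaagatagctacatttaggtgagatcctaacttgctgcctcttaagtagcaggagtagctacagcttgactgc
Start 3, chr2:101797708-101797957: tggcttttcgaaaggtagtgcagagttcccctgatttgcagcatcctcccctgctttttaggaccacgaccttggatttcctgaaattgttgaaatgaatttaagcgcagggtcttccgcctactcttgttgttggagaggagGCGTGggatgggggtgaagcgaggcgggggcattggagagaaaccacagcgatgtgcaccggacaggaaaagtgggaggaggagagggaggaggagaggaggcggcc
The core occurred once, on the gene's own strand before the third start, beginning 107 bases upstream of it. Starts 2 and 3 lie 44.0 and 85.3 kb downstream of the first. The longer form TNGCGTG, which contains the core, was not found in these windows. Across the reference table, 28.2% of the 32851 promoters held GCGTG in the same upstream stretch and 4.10% held TNGCGTG. Among the 19 promoters of the 10 genes, 11 held GCGTG upstream. Those were the single promoters of Rictor, Rptor, Tsc1 and Tsc2, both of Mapkap1, both of Akt1, 2 of 6 of Sgk1 and 1 of 3 of Prr5l. The single promoters of Mtor and Mlst8 held none. The core includes the letters CG, and the 19 stretches held from 1 to 40 CG pairs each. The shares were not matched for that content. A match of letters is a description of the sequence and not a binding site, and counts per gene do not show which start was used.

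Total gene counts ran from 26862922 to 62402450 per library, with replicate 2 the deeper of each genotype. CPM below are counts per 1000000 on the tested genes after TMM scaling, an adjustment for differences in RNA composition. They are not divided by gene length, so a level is compared across libraries and not between genes. Foxp3 stood at 250 and 259 CPM in KO and at 280 and 252 CPM in WT. Counts over the whole Ahr gene came to 536 and 518 CPM in KO and 581 and 539 CPM in WT. Counts per gene cannot show the loss of single exons, so Ahr did not check the labels. Of the markers of other cell types, those of B and plasma cells summed to 153 and 362 CPM in KO and 148 and 275 CPM in WT, mostly from Igj. Epithelial markers summed to 19.3 and 27.2 CPM in KO and 20.0 and 19.6 CPM in WT, with Epcam the largest part, and all 9 were in the table. Macrophage and dendritic markers summed to 88.0 and 47.7 CPM in KO and 109 and 58.5 CPM in WT. Stromal and endothelial markers summed to 114 and 171 CPM in KO and 119 and 165 CPM in WT. Pecam1 was the largest part, at 105 and 107 CPM in KO and 107 and 113 CPM in WT. Each marker of this list was higher in replicate 2 of each genotype. Col3a1 had 4.01 and 44.8 CPM in KO and 5.55 and 37.8 CPM in WT. Cytotoxic and innate lymphoid markers, nearly all from Gzmb, summed to 893 and 1171 CPM in KO and 980 and 1066 CPM in WT.

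Prr5l, the gene of the accessory subunit of mTORC2, was far lower in KO than in WT. It had 103 and 191 counts in the KO libraries and 253 and 660 counts in the WT libraries, which is 3.36 and 3.61 CPM in KO and 9.42 and 10.4 CPM in WT. Both KO values lay far below both WT values, and the replicates of a genotype stood close together. The mean was 3.49 ± 0.182 CPM in KO and 9.89 ± 0.668 CPM in WT (SD, n = 2 each). KO cells thus held 35.2% of the WT level, a log2 fold change of -1.50 ± 0.17 (KO over WT, standard error derived from the edgeR test). Within replicate number 1 the log2 ratio was -1.48, and within replicate number 2 it was -1.51.

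Intervals and ranks are given to describe the values, since the choice of Prr5l by this difference fixes that they stand apart. The exact 95% Poisson intervals, which cover counting error only, were 2.74 to 4.07 CPM and 3.12 to 4.16 CPM in KO and 8.30 to 10.7 CPM and 9.59 to 11.2 CPM in WT. The intervals of the KO libraries overlapped each other, as did those of the WT libraries, and no KO interval reached a WT interval. Of the 14274 genes tested, 40 had a lower log2 fold change than Prr5l. Of the 1323 other genes whose average log2 CPM lay within 0.5 of that of Prr5l, 0 did. DESeq2 called 1 of the 10 genes, Prr5l, as lower in KO, beside 0.1% of all genes with a DESeq2 adjusted p that were called lower. edgeR's quasi-likelihood test called 0 of the 10 at a Benjamini-Hochberg adjusted p under 0.05, beside 0% of all genes tested. With limma-voom it was also 0 of the 10, beside 0% of all genes tested. At an unadjusted p under 0.05 edgeR had 1 of the 10, beside 2.85% of all genes. Since that contrast chose Prr5l, nothing is read from these intervals, ranks and counts.

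In a sorted bulk sample, fewer cells that express Prr5l and less Prr5l RNA per cell cannot be told apart. Of the mast cell and neutrophil markers, Kit was also lower in both KO libraries than in both WT libraries. These markers summed to 6.32 and 5.05 CPM in KO and 12.3 and 11.3 CPM in WT, with 4 of 6 in the table. Nearly all of that sum was Kit, at 6.16 and 4.92 CPM in KO and 12.3 and 10.7 CPM in WT. DESeq2 called Kit lower in KO (adjusted p = 0.0294) where edgeR did not (adjusted p = 0.856). The mast cell protease genes Cpa3 and Mcpt1 stayed at no more than 0.163 and 0.487 CPM, and Mcpt1 was at 0 in both KO libraries and in WT replicate 1. S100a9, the neutrophil marker, was at 0 in both replicate 1 libraries and had 5 counts in KO replicate 2 and 1 count in WT replicate 2. Of the 9 epithelial markers, 6 were higher in both KO libraries than in both WT libraries, beside 13.5% of all genes tested. Krt8, a keratin gene, had 31 and 204 counts in KO and 0 and 8 counts in WT, and DESeq2 called it higher (adjusted p = 0.0008) where edgeR did not (adjusted p = 1.00). Krt19 had 17 and 129 counts in KO and 4 and 0 counts in WT, and Krt20 was at 0 in WT replicate 2. The keratin gene Krt18 went the other way, with 1.43 and 1.53 CPM in KO and 2.01 and 2.26 CPM in WT. Epcam, the marker with the highest level, stood at 12.2 and 13.7 CPM in KO and 14.7 and 14.5 CPM in WT. The part of such cells in the Prr5l difference was not tested. The 9 Treg markers summed to 8259 and 7659 CPM in KO and 7354 and 6956 CPM in WT, with Ctla4 the largest part, at 3773 and 3620 CPM in KO and 3196 and 3045 CPM in WT. Of the 9, 4 were higher in both KO libraries than in both WT libraries, beside 13.5% of all genes tested. Foxp3, Ikzf2 and Cd3e had negative log2 fold changes.

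**Figure D1:**
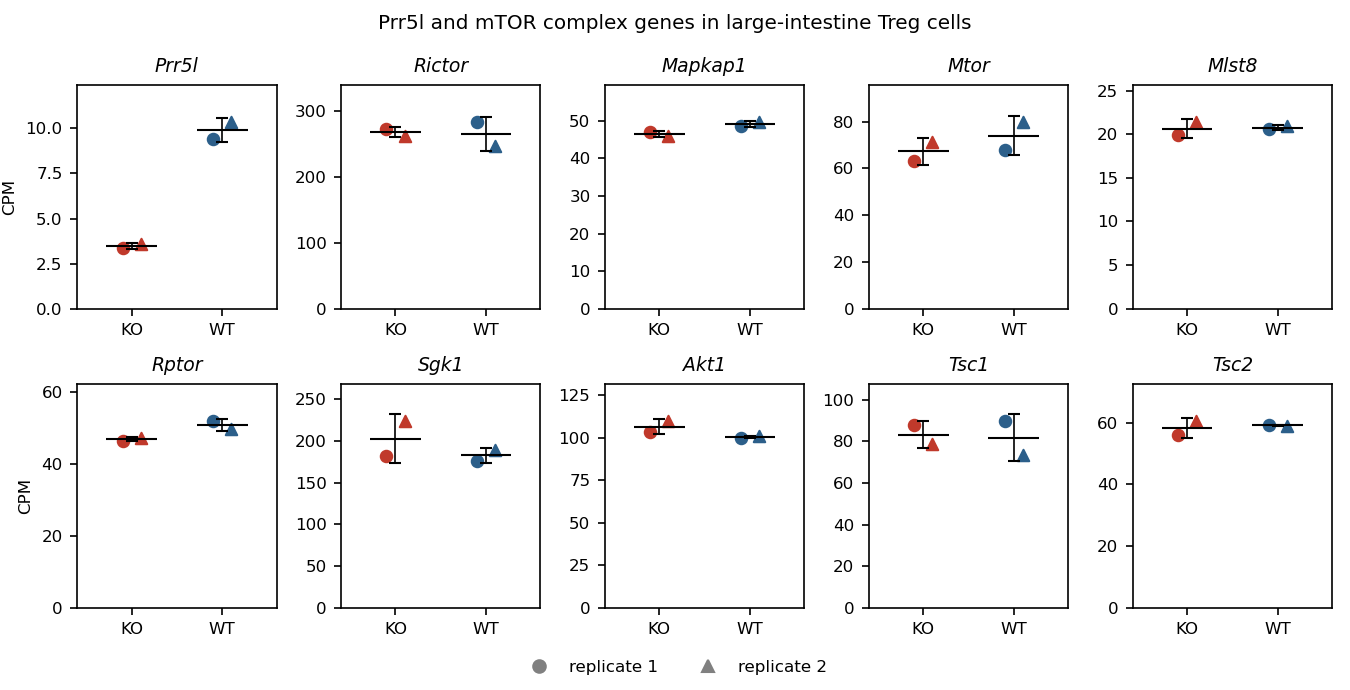
CPM of the 10 genes in each library, with KO left of WT, circles for replicate 1, triangles for replicate 2, a bar for the mean and whiskers for the SD (n = 2). Prr5l stood at 3.36 and 3.61 CPM in KO and at 9.42 and 10.4 CPM in WT, while in the other 9 panels the genotypes overlapped or lay close together.

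The core subunits of mTORC2 that PRR5L binds stood at similar levels in both genotypes. Rictor, the scaffold of the complex, had 273 and 263 CPM in KO and 284 and 247 CPM in WT. Its WT libraries lay on either side of both KO libraries, and the log2 fold change was 0.014 ± 0.10. Mapkap1, which encodes SIN1, the subunit that presents substrates to the kinase, had 47.0 and 45.9 CPM in KO and 48.6 and 49.7 CPM in WT. The KO values lay just below the WT values, with a log2 fold change of -0.082 ± 0.098.

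The subunits shared by both complexes showed the same picture. Mtor, the kinase itself, had 63.3 and 71.5 CPM in KO and 68.0 and 79.9 CPM in WT. The groups overlapped, replicate 2 was the higher library in each genotype, and the log2 fold change was -0.13 ± 0.13, which was -0.25 without WT replicate 1 and -0.013 without WT replicate 2. Mlst8, the subunit that stabilises the kinase domain, had 19.9 and 21.4 CPM in KO and 20.6 and 20.9 CPM in WT. The WT values fell between the KO values, and the log2 fold change was -0.0061 ± 0.11. Rptor, the scaffold that defines mTORC1, had 46.5 and 47.4 CPM in KO and 51.9 and 49.7 CPM in WT. Its KO values lay below its WT values, with a log2 fold change of -0.12 ± 0.10.

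Of the substrate kinases of mTORC2, Sgk1 was the more variable. Sgk1, a kinase that is induced by salt and hormones and acts on ion transport and FoxO factors, had 182 and 223 CPM in KO and 176 and 189 CPM in WT. KO replicate 2 stood above the other 3 libraries, and the groups overlapped. The log2 fold change was 0.15 ± 0.12, and without KO replicate 2 it was -0.0063. Akt1, the kinase that links PI3K to growth and to FoxO factors, had 103 and 110 CPM in KO and 100 and 101 CPM in WT. The KO values lay just above the WT values, with a log2 fold change of 0.084 ± 0.089, which was 0.039 without KO replicate 2.

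The inhibitors of mTORC1 overlapped between genotypes. Tsc1, the scaffold of the complex, had 87.8 and 78.7 CPM in KO and 89.7 and 73.7 CPM in WT, with replicate 1 the higher library in each genotype. Tsc2, the subunit that acts on Rheb, had 55.9 and 60.5 CPM in KO and 59.4 and 59.0 CPM in WT. Their log2 fold changes were 0.028 ± 0.13 and -0.024 ± 0.10.

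Leaving Prr5l aside, the log2 fold changes of the set ran from -0.13 for Mtor to 0.15 for Sgk1, with 4 higher and 5 lower. Their median was -0.0061, beside 0.0074 over all genes tested. The genotypes did not overlap for Prr5l, Mapkap1, Rptor and Akt1, which is 4 of 10, beside 27% of all genes tested. In 6 of the 10 genes the average shift between the replicates of a genotype was larger than the shift between genotypes, beside 72.7% of all genes tested. Replicate 2 differed from replicate 1 in the same direction in both genotypes in 7 of the 10 genes, beside 69.9% of all genes tested. In the table's annotation Prr5l overlaps no other gene. Mtor overlaps Angptl7, Mlst8 overlaps 9930021D14Rik and Tsc2 overlaps Pkd1, and since the use of strand in counting is not given in the sources used here, reads in those overlaps cannot be assigned with certainty.

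**Figure D2:**
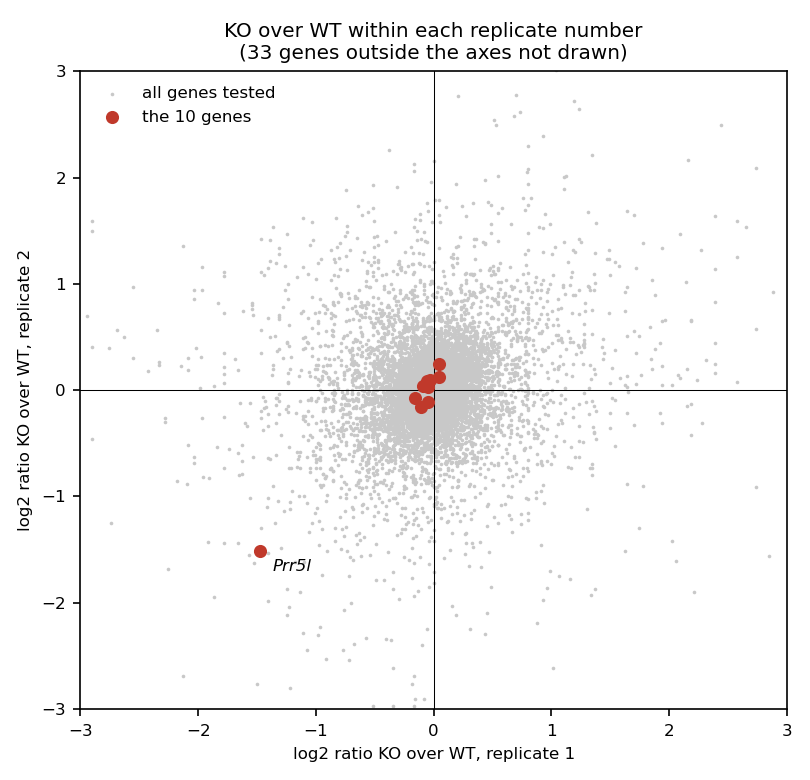
Log2 ratio of KO over WT within replicate number 1 (horizontal) and within replicate number 2 (vertical) for each gene tested (grey) and the 10 genes (red), from log2 CPM with a prior count of 2. Prr5l lies at -1.48 and -1.51, and the other 9 lie near the origin; 33 genes beyond 3 on either axis are not drawn.

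The neighbours of Prr5l on chromosome 2 were read next, to see whether the difference extended along the chromosome. Prr5l runs on the minus strand from 101723171 to 101554442 (mm9, as the count table gives it), a span of 169 kb. Commd9, which encodes a protein of the COMMD family, starts 3.24 kb from the start of Prr5l on the other strand. It had 4.27 and 4.56 CPM in KO and 4.65 and 4.46 CPM in WT, so the genotypes overlapped. Its log2 fold change was -0.04 ± 0.20 (95% interval -0.53 to 0.45, edgeR adjusted p = 1.00). Traf6, a ubiquitin ligase of the NF-kappaB pathway, lies 12.6 kb beyond the other end of Prr5l. It had 155 and 176 CPM in KO and 172 and 169 CPM in WT, a log2 fold change of -0.04 ± 0.10 (95% interval -0.28 to 0.20, edgeR adjusted p = 1.00).

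Further out, Trim44 had 82.7 and 79.5 CPM in KO and 82.8 and 87.2 CPM in WT, a log2 fold change of -0.07 ± 0.09 (edgeR adjusted p = 1.00). Ldlrad3, between Commd9 and Trim44, was low, with 20 and 46 counts in KO and 9 and 25 counts in WT. Its log2 fold change was 1.05 ± 0.50 (95% interval -0.19 to 2.30, edgeR adjusted p = 1.00). The recombinase genes Rag1 and Rag2, which developing lymphocytes use to assemble antigen receptors, lay beyond Traf6 and were too low to be tested. Rag2 had 0 counts in both KO libraries and 1 and 0 counts in WT, and Rag1 had 1 and 1 counts in KO and 0 and 15 counts in WT.

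**Figure D3:**
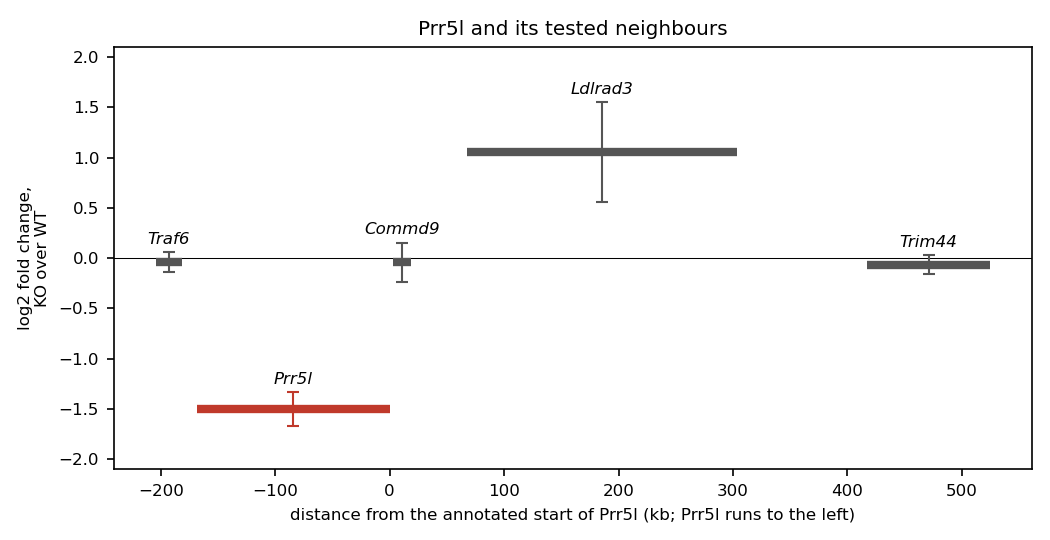
Log2 fold change of KO over WT (vertical, whiskers for the standard error) of Prr5l and its 4 tested neighbours, drawn as bars over each gene's span at its distance in kb from the annotated start of Prr5l (horizontal). Prr5l lies at -1.50, Traf6, Commd9 and Trim44 lie between -0.07 and -0.04, and Ldlrad3 lies at 1.05 with a standard error of 0.50.

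The wider pathway was read from a list of 107 further genes in 10 groups by role, of which 106 were in the table and 104 were tested. edgeR called 0 of the 104, beside 0% of all genes tested. With limma-voom and DESeq2 it was also 0 of the 104, beside 0% and 0.267% of all genes. At an unadjusted p under 0.05 there was 1 gene higher and 1 lower, beside 2.85% of all genes tested. In direction, 56 were higher and 48 lower, with a median log2 fold change of 0.0066, beside 0.0074 over all genes. Of all 14274 genes tested, 7424 were higher and 6850 lower. Counts of direction, here and by group below, include values close to 0. The 95% interval excluded a change of 1.5-fold or more in either direction for 83 of the 104 and a change of 2-fold or more for 97. Over all 14274 genes tested, it did so for 8148 and 10638. The genotypes did not overlap in 23 of them, 9 with KO above WT and 14 with KO below WT, beside 13.5% and 13.4% of all genes tested.

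Among the other subunits and assembly factors of the mTOR complexes, 2 of 5 tested genes were higher and 3 lower. Prr5, the close relative of Prr5l that encodes Protor-1, was near the floor of detection. It had 8 and 12 counts in KO and 12 and 8 counts in WT, and its log2 fold change of -0.13 ± 0.83 has a 95% interval of -2.21 to 1.94, too wide to say whether it differed. Deptor, which encodes an inhibitor of both complexes, was also low, with 19 and 78 counts in KO and 28 and 36 counts in WT. Telo2, a chaperone that assembles mTOR and related kinases, had 15.8 and 17.1 CPM in KO and 18.2 and 19.0 CPM in WT, and Tti1, its partner, had 24.997 and 26.0 CPM in KO and 25.1 and 29.0 CPM in WT. Their log2 fold changes were -0.18 ± 0.11 and -0.09 ± 0.12 (edgeR adjusted p = 1.00 for each).

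Upstream of mTORC1, 2 of 4 tested genes around TSC and Rheb were higher. Rheb, the GTPase that switches mTORC1 on, had 94.97 and 94.2 CPM in KO and 95.1 and 85.2 CPM in WT. Ddit4, a stress-induced inhibitor that acts through TSC, had 296 and 252 CPM in KO and 263 and 243 CPM in WT. Genes of the Rag GTPases, of their lysosomal anchor Ragulator and of folliculin and its partners, which together bring mTORC1 to the lysosome when amino acids are present, were higher in 8 of 13 cases. The lowest p among them belonged to Fnip2, a partner of folliculin, with 18.7 and 19.3 CPM in KO and 16.3 and 12.1 CPM in WT, a log2 fold change of 0.43 ± 0.17 (unadjusted p = 0.0472, edgeR adjusted p = 1.00). It was 0.65 without WT replicate 1 and 0.22 without WT replicate 2. Rragb, which encodes RagB, had 4.04 and 5.90 CPM in KO and 2.87 and 4.38 CPM in WT, a log2 fold change of 0.45 ± 0.31, which was 0.14 without KO replicate 2, 0.19 without WT replicate 1 and 0.80 without WT replicate 2. Of the 16 genes of the GATOR complexes, KICSTOR and amino acid sensors, 4 were higher and 12 lower. Their log2 fold changes ran from -0.23 to 0.13, with a median of -0.040. Nprl3, a GATOR1 subunit, had a log2 fold change of -0.23 ± 0.12, and Sesn1, which encodes sestrin 1, had -0.15 ± 0.11.

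Downstream of mTORC1, 10 of 15 tested genes were higher and 5 lower, with a median log2 fold change of 0.054. Tcfeb, the table's symbol for the lysosomal transcription factor TFEB, had 16.5 and 17.2 CPM in KO and 13.3 and 15.2 CPM in WT, a log2 fold change of 0.24 ± 0.12. Pdcd4, an inhibitor of translation that is degraded after S6 kinase acts on it, had 176 and 183 CPM in KO and 198 and 188 CPM in WT, a log2 fold change of -0.11 ± 0.09. Neither passed edgeR's test (adjusted p = 1.00 for each). The highest log2 fold change of the list, 0.92, belonged to Grb10, which had 2 and 95 counts in KO and 2 and 55 counts in WT and so followed the replicate number.

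The AGC kinases around mTORC2 were higher in 7 of 11 tested cases. Akt2 had 85.2 and 88.7 CPM in KO and 82.4 and 83.5 CPM in WT, a log2 fold change of 0.07 ± 0.09 beside 0.084 ± 0.089 for Akt1. Sgk3 had -0.15 ± 0.22, and Sgk2 had 0 and 7 counts in KO and 2 and 1 counts in WT and was not tested. Prkch, the gene of protein kinase C eta, had 624 and 531 CPM in KO and 506 and 433 CPM in WT. Both KO libraries lay above both WT libraries, with a log2 fold change of 0.30 ± 0.13 (95% interval -0.02 to 0.62, edgeR adjusted p = 1.00).

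Of the 16 genes of PI3K and lipid phosphatases, 5 were higher and 11 lower, with a median log2 fold change of -0.044. Pik3r3, a regulatory subunit of PI3K, had 5.28 and 4.18 CPM in KO and 6.74 and 7.10 CPM in WT, with both KO values below both WT values. Its log2 fold change was -0.55 ± 0.20 (unadjusted p = 0.0345, edgeR adjusted p = 1.00), the lowest of the 104. Pik3r2, another regulatory subunit, had -0.18 ± 0.16. The AMPK arm, which opposes mTORC1 when energy is short, had 7 of 9 tested genes higher, with a median log2 fold change of 0.016. Its 2 lowest p belonged to Prkaa1 (-0.14 ± 0.10) and Prkab2 (-0.12 ± 0.11), which encode subunits of AMPK.

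**Figure D4:**
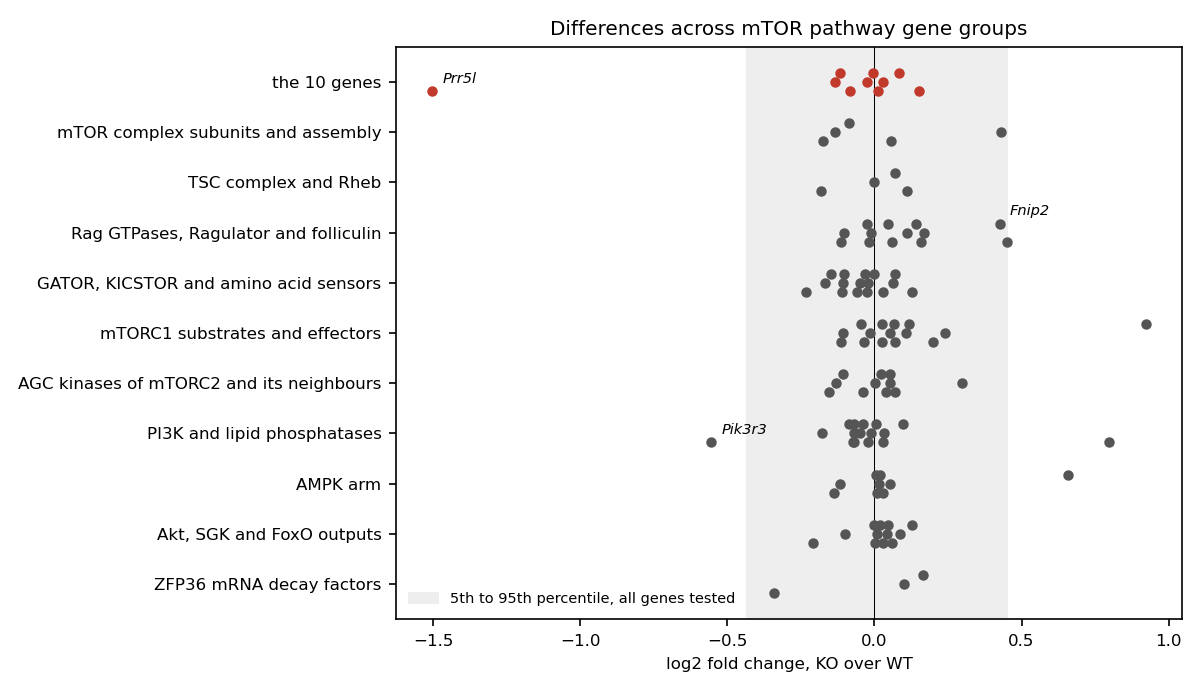
Log2 fold change of KO over WT (horizontal) for the 10 genes (red) and the 104 tested genes of the wider list by role group (grey), with a shaded band from the 5th to the 95th percentile of all genes tested, -0.43 to 0.45. Prr5l at -1.50 lies outside the range of every group, whose values run from -0.55 for Pik3r3 to 0.92 for Grb10.

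A group of 12 genes downstream of AKT and SGK held proteins that these kinases act on, such as the FoxO factors, and transcripts that depend on FoxO factors. Levels of RNA do not show the activity of a kinase. Of the 12 tested, 9 were higher and 3 lower. The values ran from -0.21 to 0.13 on the log2 scale, with a median of 0.024. In this group 0 were called by edgeR, DESeq2 or limma-voom, beside 0%, 0.267% and 0% of all genes. At an unadjusted p under 0.05 edgeR had 0 of the 12, beside 2.85% of all genes tested. The 95% interval excluded a change of 1.5-fold or more for 10 of the 12, beside 8148 of all 14274 genes tested. Nedd4l, a ubiquitin ligase that SGK1 phosphorylates, had 6.00 and 6.43 CPM in KO and 7.41 and 6.97 CPM in WT, a log2 fold change of -0.21 ± 0.16. Ccr7, a FoxO1-dependent homing receptor, had 434 and 407 CPM in KO and 430 and 340 CPM in WT, a log2 fold change of 0.13 ± 0.13. The ZFP36 family, RNA-binding proteins that promote the decay of AU-rich messages, was included because PRR5L has been linked in human cells to ZFP36 (tristetraprolin). Zfp36 had 493 and 632 CPM in KO and 495 and 508 CPM in WT, a log2 fold change of 0.17 ± 0.14. Zfp36l1 had 454 and 394 CPM in KO and 620 and 454 CPM in WT, a log2 fold change of -0.34 ± 0.17 (95% interval -0.76 to 0.08), which was -0.10 without WT replicate 1 and -0.55 without WT replicate 2. Neither passed edgeR's test (adjusted p = 1.00 for each).

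The genes whose levels over the 4 libraries were most like those of Prr5l were sought among 11334 other tested genes whose average log2 CPM was 1 or more. Likeness was the Euclidean distance between log2 CPM values after each gene's own mean was taken off, so that size and direction both counted. The nearest were Wdr69 (distance 0.33), which encodes a dynein assembly factor, the unnamed transcript 4930503L19Rik (0.42), Frmd5 (0.43), which encodes a FERM domain protein, Gpr15 (0.45), a homing receptor for the colon, and Gbp1 (0.48), a guanylate-binding protein gene. Wdr69 had 6.91 and 7.45 CPM in KO and 16.2 and 16.2 CPM in WT. Frmd5 had 11.5 and 12.9 CPM in KO and 25.4 and 25.8 CPM in WT. All 5 were thus lower in both KO libraries than in both WT libraries, which the choice by likeness fixes, and their log2 fold changes ran from -1.17 for Wdr69 to -1.05 for Gpr15, smaller in size than that of Prr5l. When likeness was Pearson's correlation over the 4 libraries, and the candidates were only the 513 of these genes whose SD over the libraries was at least 50% of that of Prr5l, 3 of the 5 were again among the nearest 5, Gpr15, Wdr69 and Frmd5. With 4 libraries this is a description of these samples only.

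**Figure D5:**
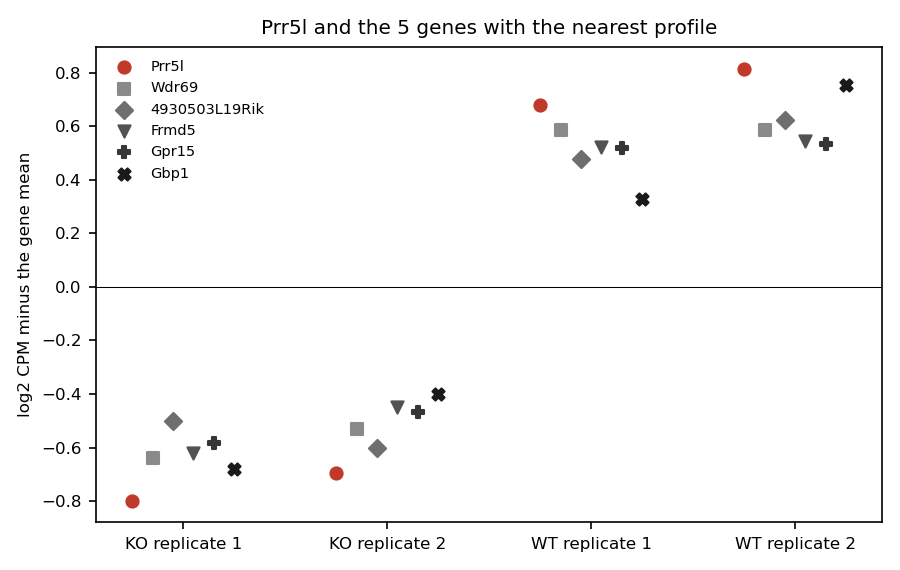
Log2 CPM minus the gene's own mean over the 4 libraries (vertical) for Prr5l (red circles) and the 5 genes with the nearest profile (grey symbols) in each library (horizontal). All 6 genes lie below 0 in both KO libraries and above 0 in both WT libraries, and Prr5l lies farthest from 0 in each library.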

How the data were processed

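Treg cells were sorted from large-intestine lamina propria, and RNA was depleted of ribosomal RNA and sequenced, per the labels' protocols. The deposited table held whole-number counts per gene and library without normalization, and an adjusted p-value per gene made by the authors, whose comparison the header does not name and which was read as KO against WT. TopHat2, DESeq and mm9 are named in the submitters' processing notes. No source used here gives the counting tool or annotation. Of 8 samples, the 4 RNA-seq libraries were used; the 4 ATAC-seq samples were not used here. Total counts ran from 26862922 to 62402450, and a count of 0 allows 3 counts, which is 0.0471 to 0.112 CPM.

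Genes were tested with edgeR 4.0.16 (R 4.3.3): filterByExpr, TMM, the two-sided quasi-likelihood F-test, no term but genotype, and Benjamini-Hochberg adjustment over 14274 genes at 0.05. DESeq2 1.42.0, limma 3.58.1 (voom), other scalings, no filter, the replicate number as a block and leaving out each library were alternatives. Scripts were tested on simulated data. The genes and lists were chosen with earlier results of these data known. The text names all 10 genes, the 2 of lowest p per role group, any listed gene that was called, the relatives Prr5, Akt2, Sgk2 and Sgk3, the 3 genes on either side of Prr5l, the 5 nearest profiles, Ahr and Foxp3; Deptor, Grb10, Foxo1, Il7r, Klf2, Irs1, Prkaa2 and single cell type markers were named after their values were seen. A gene that this rule also takes is not reported here. Older symbols were matched through RefSeq synonyms for 4 listed genes. Promoter sequences are from RefSeq (GRCm38), in which all 10 genes matched; the longer motif was added after seeing the data. Levels per gene length, planned at first, were not computed because the tables used here hold no exon lengths.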

Additional observations from a re-analysis of the deposited data

How the results depend on the processing

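The log2 fold change of Prr5l ran from -1.57 to -1.43 over the 4 fits that left out a library and stayed within -1.51 and -1.50 under the other 6 alternatives. Those of Mapkap1, Rptor, Mtor and Akt1 kept their direction in all 10 alternatives, though Mtor ran from -0.25 without WT replicate 1 to -0.013 without WT replicate 2. Those of Rictor (-0.084 to 0.12), Mlst8 (-0.062 to 0.036), Sgk1 (-0.0063 to 0.28), Tsc1 (-0.11 to 0.18) and Tsc2 (-0.083 to 0.022) turned in fits without a library. Of all genes, edgeR called 0; it called 52 without a filter, 0 to 2 without a library and 458 with the replicate number as a block, and DESeq2 called 48. Of the wider list the alternatives called 0, except the block, which called 3: Fnip2 (0.45) and Prkch (0.30) higher and Zfp36l1 (-0.33) lower. That block fit has 1 residual degree of freedom. The labels do not say that the numbers pair the samples, though the deviations of KO and WT libraries with the same number from their group means had a correlation of 0.641 across genes. Directions turned, none called, in fits without a library for Tti1 (-0.19 to 0.021), Rheb (-0.0083 to 0.15), Pik3r2 (-0.34 to 0.0090), Ccr7 (-0.033 to 0.30), Ddit4 (-0.019 to 0.22), Traf6 (-0.13 to 0.035), Zfp36 (-0.025 to 0.32) and Prr5 (-0.87 to 0.94), and for Prr5 also with the block (0.036) and with limma-voom (0.27). The cause was not tested. Counting GCGTG over the whole promoter window in place of its upstream part gave 35.2% of genes in place of 30.9%. Without a library, Zfp36l1 ran from -0.55 to -0.10, Rragb from 0.14 to 0.80, Fnip2 from 0.22 to 0.65, Prkch from 0.17 to 0.41 and Pik3r3 from -0.74 to -0.39. The 95% intervals of Prr5, Deptor, Irs1, Prkaa2, Grb10, Rragb and Pik3r3 reach beyond 2-fold, so such a change was not excluded there.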

Other observations

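Several outputs of FoxO factors differed more between replicate numbers than between genotypes. Foxo1, a transcription factor that AKT and SGK1 keep out of the nucleus, had 390 CPM in KO replicate 1 and 280 CPM in KO replicate 2, beside 391 CPM in WT replicate 1 and 241 CPM in WT replicate 2. The FoxO1-dependent genes Il7r and Klf2 were likewise higher in replicate 1 of each genotype. Il7r had 274 and 217 CPM in KO and 292 and 234 CPM in WT, and Klf2 had 129 and 104 CPM in KO and 133 and 99.0 CPM in WT. These genes were picked after their values were seen, and no test was run on them between replicate numbers. Prr5l had 3.36 and 3.61 CPM in KO and 9.42 and 10.4 CPM in WT, with replicate 2 slightly the higher in each genotype.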
